A study of Rattus norvegicus with 6 samples.

Results

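Genes that mark GABAergic interneurons were examined in primary hippocampal neurons in which cyclin Y (CCNY) was overexpressed or knocked down. The 9 genes were picked by name as known markers of these cells, with earlier results of these data known. All 9 are among the 17066 genes of the table. Gad1, Gad2 and Slc32a1 make GABA and load it into vesicles. Pvalb, Calb1 and Calb2 encode the calcium-binding proteins parvalbumin, calbindin and calretinin, and Lhx6, Dlx1 and Dlx2 encode transcription factors of interneuron development. Of the 9, 8 had an FPKM (a fragment count scaled by transcript length and by the size of the library) of at least 1 in 2 or more libraries and were tested among 10188 genes, and Pvalb did not reach this level.

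The neurons were taken from embryos of Sprague-Dawley rats (embryonic day 18). At day in vitro (DIV) 5 or 6 they received lentivirus encoding EGFP alone (control), CCNY-WT-EGFP (overexpression of wild-type CCNY) or CCNY-shRNA-EGFP (knockdown of CCNY by a short hairpin RNA), so that every group was infected and carried EGFP, and RNA was taken at DIV 14. Each of the 3 groups has 2 libraries, replicates 1 and 2. The labels do not say whether the 2 came from separate cultures, so p-values measure only the spread between these libraries, which may be technical. Ccny, the targeted gene, had an FPKM of 43.1 and 42.3 with EGFP alone, 108.4 and 109.3 under overexpression and 5.98 and 6.19 under knockdown, which follows the labels. All viruses were built on the FUGW vector, which drives EGFP from the broadly active ubiquitin promoter. The labels name no hairpin in the control virus, and they give no share of infected cells for any cell type.

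Inhibitory neurons of the hippocampus use GABA (gamma-aminobutyric acid) as their transmitter. GABA is made from glutamate by 2 glutamate decarboxylases, GAD67 (Gad1), which supplies GABA throughout the cell, and GAD65 (Gad2), which is enriched at nerve terminals, and it is packed into synaptic vesicles by the transporter VGAT (Slc32a1). After release it is taken up into neurons and glia and broken down by GABA transaminase (Abat). Interneurons are set up in the ventral forebrain under Dlx1 and Dlx2, those of the medial ganglionic eminence also need Lhx6, and mature interneurons are sorted into classes by calcium-binding proteins and neuropeptides.

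The libraries held the RNA of a mixed neuronal culture. Neuronal genes such as Stmn2 (938.1 to 1019.4 FPKM over the 6 libraries) and the vesicular glutamate transporter Slc17a7 (877.2 to 944.1) were abundant. All 8 microglia markers were under an FPKM of 1 in all libraries, with sums of at most 0.389. The astrocyte markers summed to 375 to 390 in EGFP, 391 to 400 in CCNY-WT and 309 to 379 in CCNY-shRNA. The number of reads per library is unknown. The steps between low FPKM values gave depths of 0.818 to 1.33 times that of EGFP replicate 1, and 9955 to 10002 genes per library reached an FPKM of 1.

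The promoters of the glutamate decarboxylase genes are shown because Gad2 fell in the knockdown libraries whereas Gad1, the related enzyme, did not pass the threshold. Each stretch is the 250 bases before the RefSeq transcription start in rat build GRCr8, on the plus strand (Gad1, chr3:75777202-75777451; Gad2, chr17:89671468-89671717). The FPKM values were made on the older build rn4, and no coordinate was moved between builds. Capitals mark matches to the motifs searched on both strands. These were TATAAA (the sequence of a TATA box), TAATTA (a core bound by homeodomain proteins such as the Dlx and Lhx families), GGGCGG (the GC box of Sp factors) and TGACGTCA (the cyclic AMP response element).
Gad1: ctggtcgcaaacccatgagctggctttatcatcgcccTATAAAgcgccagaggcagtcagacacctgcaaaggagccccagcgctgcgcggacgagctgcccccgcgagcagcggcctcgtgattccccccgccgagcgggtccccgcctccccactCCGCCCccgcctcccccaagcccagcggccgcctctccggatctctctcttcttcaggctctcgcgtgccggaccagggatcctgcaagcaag
Gad2: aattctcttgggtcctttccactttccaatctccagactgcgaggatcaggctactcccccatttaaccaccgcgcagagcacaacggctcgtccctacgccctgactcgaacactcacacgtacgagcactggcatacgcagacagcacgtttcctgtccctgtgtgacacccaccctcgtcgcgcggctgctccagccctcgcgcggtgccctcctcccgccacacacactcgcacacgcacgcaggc
The Gad1 stretch held TATAAA beginning 213 bases before the start and GGGCGG on the reverse strand 93 bases before it, and the Gad2 stretch held none of the 4 motifs. Among 33469 promoter stretches of this length, 12.9% held TATAAA, 4.86% the homeodomain core, 30.5% the GC box and 1.59% the cyclic AMP response element. Matches were counted at any position in a stretch. Whether they act as promoter elements, or bear on the change in Gad2, was not tested. Both promoters were rich in CG dinucleotides, with 23 in Gad1 and 22 in Gad2 against a median of 5 over all stretches, and their GC content was 68.4% and 62% against a median of 51.2%. Of the 9 genes, 6 had an entry among the promoters used here.

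The genes of GABA synthesis and packaging were among the more strongly expressed genes of the culture. In EGFP libraries the mean FPKM, which is scaled by transcript length and so can be compared between genes, was 188.8 ± 0.561 (SD, n = 2) for Gad1, 171.9 ± 2.11 for Gad2, 131.7 ± 5.79 for Calb1 and 130.6 ± 7.97 for Slc32a1. Over all 6 libraries Gad1 stood at percentile 96.7 of all genes by mean FPKM, Gad2 at 96, and Slc32a1 and Calb1 at 94.9. Calb2 followed at 32.7 ± 1.04, Dlx1 at 15.3 ± 1.04, Lhx6 at 12.1 ± 1.43 and Dlx2 at 4.36 ± 0.288. The neighbours Calb1 and Slc32a1 overlapped in EGFP, with Calb1 above Slc32a1 in 4 of the 6 libraries, and all other neighbours in this order were separate in EGFP. Over all 6 libraries, the ranges of Gad2 and Calb1 and those of Dlx1 and Lhx6 also overlapped, although Gad2 was above Calb1 in each of the 6 libraries and Dlx1 above Lhx6 in 5.

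Pvalb, which marks fast-spiking basket cells, was near or at 0. It was listed at 1.46 and 0 FPKM with EGFP alone, 0.744 and 0 under overexpression, and 0 and 0.842 under knockdown. The values above 0 match 3, 2 and 2 fragments as the smallest whole numbers, since 1 fragment was worth 0.369 to 0.597 FPKM depending on the library. No difference in Pvalb was detectable at this depth.

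**Figure D1:**
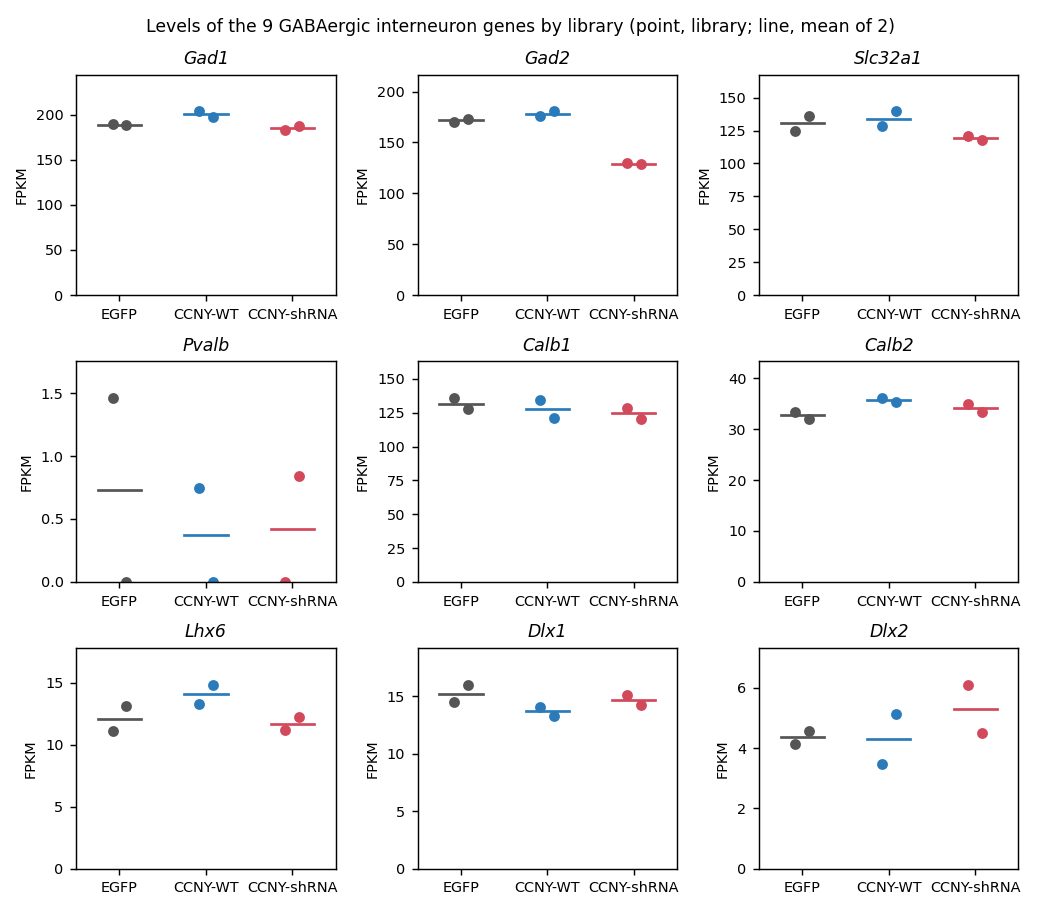
FPKM of each of the 9 GABAergic interneuron genes (vertical axes, each starting at 0) in EGFP, CCNY-WT and CCNY-shRNA libraries; a point is a library and a line the mean of 2. Gad2 lies at 129.0 and 129.5 in CCNY-shRNA and at 170.4 to 180.7 in the other 4 libraries, whereas Gad1 stays between 183.3 and 203.7 and Pvalb is at 0 in 3 libraries.

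Knockdown of CCNY was compared with EGFP to ask which of these genes change when CCNY is reduced. Gad2, which fell by 24.8%, was the only one of the 8 tested members called, in a test whose call was lost in 7 of 15 alternative settings. The other genes of GABA synthesis and packaging, the calcium-binding proteins and the transcription factors did not pass the threshold. This test was limma on log2 of FPKM floored to 1, with Benjamini-Hochberg adjustment over all 10188 genes and a threshold of 0.05. By it 1 of the 8 tested members was called, against 0.746% of all genes tested (0.579% called lower). The members were chosen with earlier results known, so this share is only a description.

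Gad2 had an FPKM of 170.4 and 173.4 with EGFP alone and 129.5 and 129.0 under knockdown. The 2 libraries of each group lay close together and the groups did not overlap. The log2 change was -0.41 with a standard error of 0.0494 (95% interval -0.53 to -0.30, limma adjusted p = 0.0226), a level 24.8% lower (interval 18.6 to 30.6), and Gad2 ranked 17 by p among all genes. Among 653 genes within 1.5 times the level of Gad2, 4 (0.613%) fell as much or more, with Gad2 itself counted in both numbers. The median log2 change of the 653 genes was 0.03. Over the 15 alternative settings the log2 change stayed between -0.44 and -0.40. Its adjusted p ran from 0.0171 to 0.232, and without EGFP replicate 1, EGFP replicate 2, CCNY-WT replicate 1 and CCNY-WT replicate 2 it was 0.128, 0.232, 0.0632 and 0.0623. In such bulk RNA, fewer GABAergic cells and less RNA per cell cannot be told apart.

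Gad1 had an FPKM of 189.2 and 188.4 with EGFP alone and 183.3 and 187.1 under knockdown. Its groups did not overlap, but they lay within a few percent of each other, with a log2 change of -0.03 (SE 0.0499, 95% interval -0.14 to 0.09, limma adjusted p = 0.813). Slc32a1 had 125.0 and 136.3 with EGFP alone and 120.6 and 117.6 under knockdown. Here the highest CCNY-shRNA library was just under the lowest EGFP library, and the log2 change was -0.13 (SE 0.0661, interval -0.28 to 0.02, limma adjusted p = 0.332). A fall in Slc32a1 of up to 17.9% lies inside that interval, so these data do not show that it was equal in the groups. Gad1, Gad2 and Slc32a1 were the 3 members whose CCNY-shRNA libraries were both below both EGFP libraries, against 24.5% of all genes tested, and 0 members were higher without overlap, against 23.9%.

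The ratio of Gad2 to Gad1 was computed within each library, where the scaling between libraries drops out. It was 0.901 and 0.92 with EGFP alone, 0.862 and 0.915 under overexpression and 0.707 and 0.69 under knockdown. Both knockdown libraries lay below the other 4, and the difference of the mean log2 ratio from EGFP was -0.38, with SDs of 0.022 in EGFP and 0.0246 in CCNY-shRNA. A two-sided exact permutation test of 2 against 2 libraries gave p = 0.333, the smallest p this design allows. The ratio of Gad2 to Slc32a1 moved in the same direction, at 1.36 and 1.27 with EGFP alone, 1.37 and 1.29 under overexpression and 1.07 and 1.1 under knockdown. The ratio of Gad1 to Slc32a1 was 1.51 and 1.38 with EGFP alone, 1.59 and 1.41 under overexpression and 1.52 and 1.59 under knockdown. Here both CCNY-shRNA libraries lay above EGFP. Replicate 1 was inside the range of CCNY-WT and replicate 2 at its upper edge (log2 ratio 0.669 against 0.667).

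**Figure D2:**
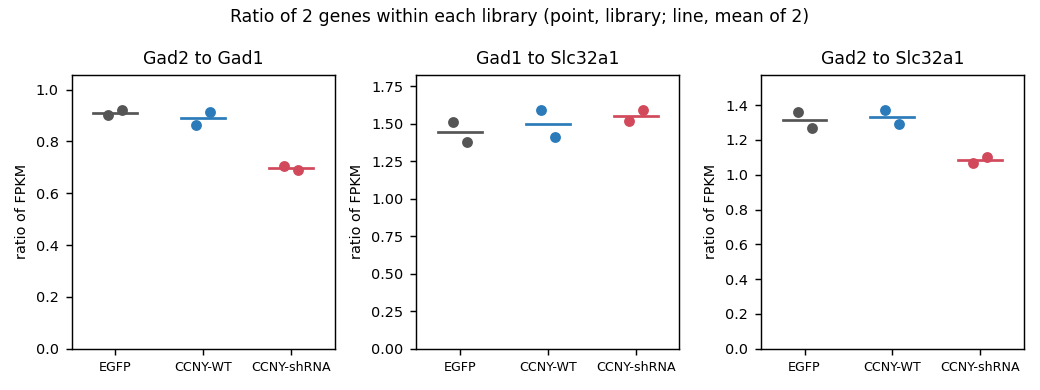
Ratio of FPKM of 2 genes within each library (vertical axes, starting at 0) in the 3 groups; a point is a library and a line the mean of 2. Gad2 to Gad1 lies at 0.69 and 0.707 in CCNY-shRNA and from 0.862 to 0.92 elsewhere, and Gad2 to Slc32a1 is also lowest in CCNY-shRNA.

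The calcium-binding proteins did not pass the threshold in CCNY-shRNA. Calb1, which in the hippocampus also labels granule cells and some pyramidal neurons, had an FPKM of 135.8 and 127.7 with EGFP alone and 128.5 and 120.5 under knockdown (log2 change -0.08, interval -0.24 to 0.08, limma adjusted p = 0.574). Calb2, also a marker of Cajal-Retzius cells, had 33.4 and 32 with EGFP alone and 35 and 33.4 under knockdown (log2 change 0.06, interval -0.09 to 0.22, limma adjusted p = 0.66). The groups of Calb1 overlapped, and the lowest CCNY-shRNA library of Calb2 was at the level of the highest EGFP library.

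The transcription factors were lower in level than the other tested members, and they did not pass the threshold either. Lhx6 had an FPKM of 11.1 and 13.1 with EGFP alone and 11.2 and 12.2 under knockdown (log2 change -0.05, interval -0.34 to 0.23, limma adjusted p = 0.871), and Dlx1 had 14.5 and 16 with EGFP alone and 15.1 and 14.3 under knockdown (log2 change -0.05, interval -0.28 to 0.18, limma adjusted p = 0.829). Both genes overlapped between the groups. Dlx2 had 4.15 and 4.56 with EGFP alone and 6.09 and 4.5 under knockdown, again overlapping, with a log2 change of 0.27 (SE 0.233, interval -0.27 to 0.80, limma adjusted p = 0.585). Replicates of Dlx2 differed by 0.439 on the log2 scale in CCNY-shRNA and by 0.567 in CCNY-WT, against 0.0052 and 0.0411 for Gad2, and the interval of Dlx2 was the widest of the 8 tested members.

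Overexpression of CCNY was compared with EGFP to ask whether the same genes respond to more CCNY. Of the 8 tested members 0 passed the threshold, and 0 had an unadjusted limma p under 0.05, against 6.83% of all genes tested. A missed threshold does not show that a level was equal, and the 95% intervals give the changes these libraries leave possible. In this contrast 1 gene in all, Ccny itself, was called (0.00982% of genes tested). The median log2 change of the members was 0.04, against 0.00 over all genes tested.

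Gad2 had an FPKM of 175.7 and 180.7 in CCNY-WT, both above the EGFP libraries, with a log2 change of 0.05 (interval -0.06 to 0.17, limma adjusted p = 0.88). Gad1 had 203.7 and 197.6, also both above EGFP (log2 change 0.09, interval -0.03 to 0.20, limma adjusted p = 0.787), and Slc32a1 had 128.2 and 139.7, which overlapped EGFP (log2 change 0.04, interval -0.12 to 0.19, limma adjusted p = 0.939). These intervals hold rises of up to 15.1% for Gad1 and 12.2% for Gad2.

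Calb1 had 134.4 and 121.0 in CCNY-WT and overlapped EGFP (log2 change -0.05, interval -0.21 to 0.12, limma adjusted p = 0.923). Calb2, at 36.1 and 35.3, lay above EGFP in both libraries (log2 change 0.13, interval -0.03 to 0.28, limma adjusted p = 0.769). Lhx6, at 13.3 and 14.8, did so by a narrow margin (log2 change 0.21, interval -0.07 to 0.50, limma adjusted p = 0.794). Dlx1, at 14.1 and 13.3, lay below EGFP in both (log2 change -0.15, interval -0.39 to 0.08, limma adjusted p = 0.81), and Dlx2, at 3.46 and 5.12, overlapped it (log2 change -0.05, interval -0.59 to 0.49, limma adjusted p = 0.98). In all, 4 members were higher without overlap, against 20.3% of all genes tested, and 1 was lower, against 19.2%, and each of these 5 differences missed the threshold.

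**Figure D3:**
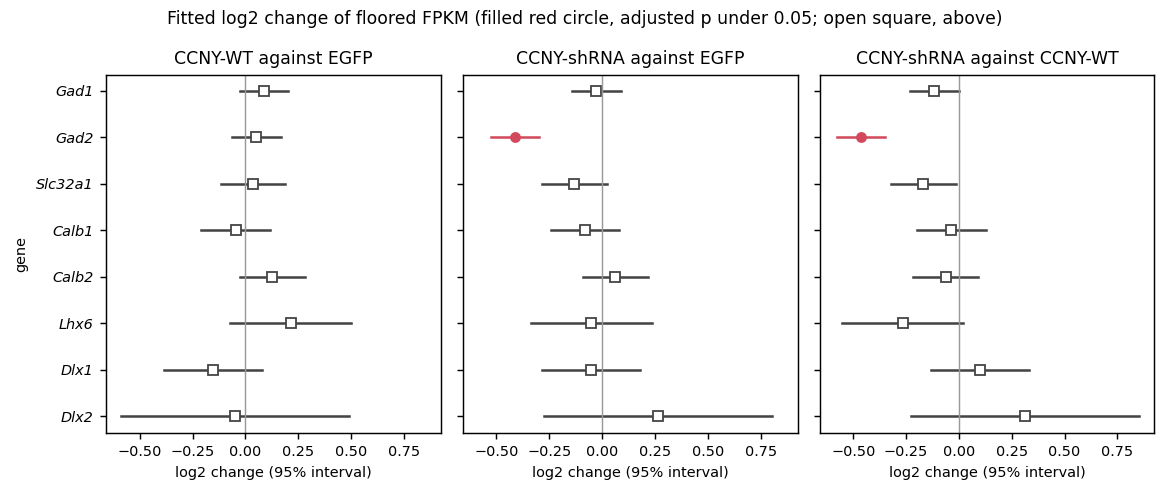
Fitted log2 change of floored FPKM (horizontal axes) with its 95% interval for the 8 tested members in the 3 contrasts; filled red circles mark a limma adjusted p under 0.05 and open squares the rest. Gad2 is the filled point, at -0.41 in CCNY-shRNA against EGFP and at -0.46 against CCNY-WT, and no gene is filled in CCNY-WT against EGFP.

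The knockdown and overexpression libraries were also compared directly, in the same fit over all 6 libraries, so that the EGFP libraries still enter the estimate of the spread. Gad2 was again the only member called, at 129.5 and 129.0 in CCNY-shRNA against 175.7 and 180.7 in CCNY-WT. The log2 change was -0.46 (SE 0.0494, interval -0.58 to -0.35, limma adjusted p = 0.0165), a level 27.5% lower (interval 21.5 to 33). The CCNY-shRNA libraries are the same ones as in the contrast with EGFP, so the contrasts are not independent. This 1 member compares with 0.216% of all genes tested (0.196% called lower), and in 15 alternative settings the adjusted p ran from 0.0127 to 0.235 and passed in 8. Without EGFP replicate 1, EGFP replicate 2, CCNY-WT replicate 1 and CCNY-WT replicate 2 it was 0.0625, 0.0716, 0.161 and 0.235, and with both EGFP libraries left out of the fit it was 0.0612.

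Gad1 and Slc32a1 were lower in both CCNY-shRNA libraries than in both CCNY-WT libraries, with log2 changes of -0.12 (unadjusted p = 0.0498, limma adjusted p = 0.411) and -0.17 (unadjusted p = 0.0352, limma adjusted p = 0.376). Lhx6 differed by -0.27 (interval -0.55 to 0.02, limma adjusted p = 0.45). The remaining members had adjusted p-values of 0.65 to 0.885. Of the 9 members, 5 were lower without overlap, against 21.9% of all genes tested, and 1, Dlx1, was higher, against 20.3%. The cut-offs of the study, 0.33 for knockdown and 0.3 for overexpression, were applied to the difference of the mean log2 of floored FPKM. Gad2 was the 1 member past the cut-off in CCNY-shRNA, against 7.92% of all 17066 genes. In CCNY-WT 0 members were past it, against 5.11%. The paper also used cuffdiff to select genes, so these shares need not match its own lists.

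Genes that clear GABA after release were read as the other end of the same pathway. Slc6a11, encoding GAT3 of astrocytes, had 66.1 and 69.6 with EGFP alone, 67.2 and 60.1 under overexpression and 55.4 and 57.9 under knockdown (log2 change -0.26, limma adjusted p = 0.121). Abat had 70.6 and 74 with EGFP alone and 72.8 and 62.2 under knockdown and overlapped, with a log2 change of -0.10 (limma adjusted p = 0.539).

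Astrocytes take up GABA as well, and their markers were read beside these values. Of 7 astrocyte markers tested, 0 were called in CCNY-shRNA against EGFP, 5 had lower and 2 higher values, and the median log2 change was -0.20. Of them 2 were lower with an unadjusted limma p under 0.05, against 9.36% of all genes tested. Without overlap 3 were lower and 0 higher, against 24.5% and 23.9%. The defining marker Gfap had 119.9 and 126.0 with EGFP alone and 98.3 and 128.7 under knockdown. Aqp4, 1 of the 2 markers with higher values, had 16.8 and 17 with EGFP alone and 16.2 and 18.5 under knockdown. Gfap and Aqp4 overlapped between the groups. The glutamate transporter Slc1a2 was 1 of the 3 markers lower without overlap. It was at 83.7 and 82.9 with EGFP alone and 65.2 and 68.6 under knockdown (log2 change -0.32, limma adjusted p = 0.0768). The part of astrocytes in the values of Slc6a11 and of Gad2 was not tested.

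The list of other markers of interneuron subtypes gave no call. Of 20 tested genes, Calb1 and Calb2 included, 15 had lower and 5 higher values in CCNY-shRNA than in EGFP, 0 passed the limma threshold and 7 had an unadjusted p under 0.05, all lower, against 9.36% of all genes tested, with a median log2 change of -0.16. Over all genes tested 49.8% were lower and the median was 0.00. Somatostatin (Sst), the neuropeptide of dendrite-targeting interneurons, was the most abundant at 1255.7 and 1310.7 FPKM with EGFP alone, 1228.3 and 1238.9 under overexpression and 1043.3 and 1157.8 under knockdown. Both CCNY-shRNA libraries were lowest, but the log2 change of -0.22 (SE 0.0767) missed the threshold (limma adjusted p = 0.181). Neuropeptide Y (Npy), at 403.5 and 451.1 with EGFP alone and 376.8 and 426.5 under knockdown, overlapped. Lamp5, a marker of neurogliaform cells, had the lowest fitted value of the list, -0.78 (limma adjusted p = 0.216), at 4.16 and 3.63 with EGFP alone and 1.61 and 3.17 under knockdown, and Penk, encoding proenkephalin, the highest, 0.21 (limma adjusted p = 0.288).

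Other transcription factors of interneurons gave no call. Of 17 in the table, 13 were tested, of which 11 had lower and 2 higher values in CCNY-shRNA, 0 were called and 0 had an unadjusted limma p under 0.05. Their median log2 change was -0.13. Zeb2, which acts downstream of the Dlx genes in migrating interneurons, was highest in level, at 45.6 and 42.5 with EGFP alone and 40 and 39.4 under knockdown (log2 change -0.15, limma adjusted p = 0.288). Nr2f1, a nuclear receptor of the caudal ganglionic eminence, followed at 31.7 and 28.4 with EGFP alone and 28.8 and 27.7 under knockdown (log2 change -0.09, limma adjusted p = 0.64). Dlx5, a relative of Dlx1 and Dlx2, had the lowest fitted value, -0.35, with one CCNY-shRNA library at 4.44 inside the EGFP range of 4.22 to 4.75 and the other at 2.78 (limma adjusted p = 0.462). Sp8 had the highest, 0.11 (limma adjusted p = 0.836), at 0.609 and 0.558 with EGFP alone and 0.893 and 1.16 under knockdown. Of these values only 1.16 lay above the floor of 1.

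**Figure D4:**
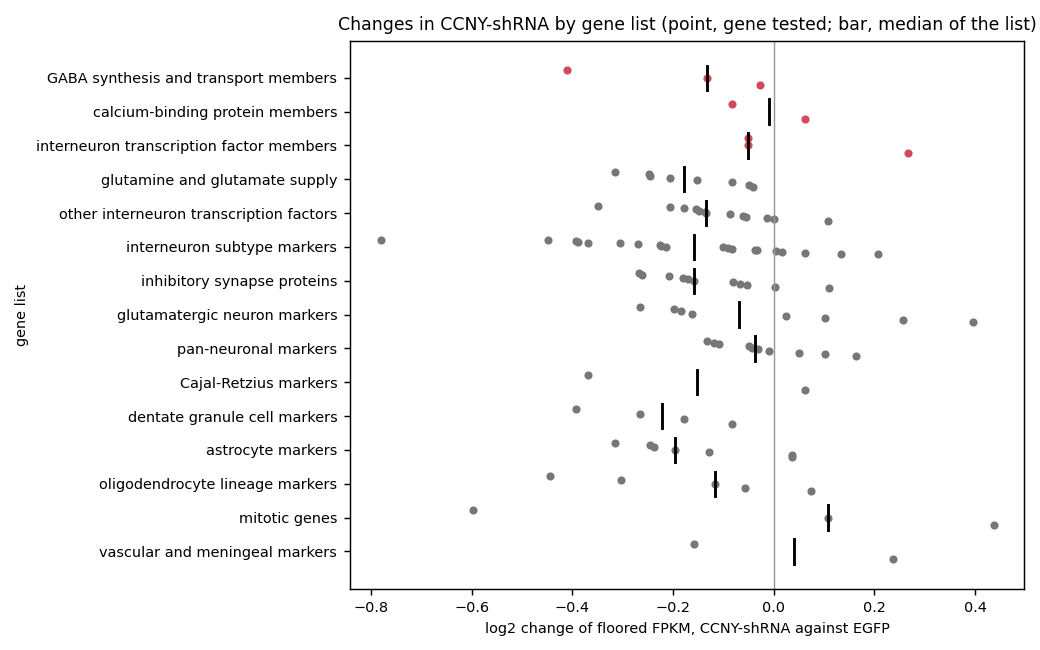
Log2 change of floored FPKM in CCNY-shRNA against EGFP (horizontal axis) for each tested gene of the lists; a point is a gene, a vertical bar the median of its list, and red points are the 8 tested members in their own lists. The member list of GABA synthesis and transport spans -0.41 for Gad2 to -0.03 for Gad1, and the median of the subtype markers lies at -0.16.

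The GABAergic genes were set against the excitatory neurons of the same culture. Of 8 tested markers of glutamatergic neurons, 4 had lower and 4 higher values in CCNY-shRNA than in EGFP and 0 were called, with a median log2 change of -0.07. Without overlap 4 were lower and 2 higher, against 24.5% and 23.9% of all genes tested. With an unadjusted limma p under 0.05, 2 were lower, against 9.36% of all genes tested, and 1 was higher. Slc17a7 was at 893.9 and 936.1 with EGFP alone and at 915.9 and 944.1 under knockdown. Neurod2, a transcription factor of excitatory neurons, was at 34 and 29.5 with EGFP alone and at 41.7 and 41.6 under knockdown (log2 change 0.40, limma adjusted p = 0.0819), whereas Neurod1 had the lowest fitted value of the list, -0.27. The ratio of the geometric mean of Gad1, Gad2 and Slc32a1 to that of the glutamatergic list was 2.53 and 2.61 with EGFP alone, 2.73 and 2.76 under overexpression and 2.26 and 2.25 under knockdown. The 3 groups did not overlap, and the difference of CCNY-shRNA from EGFP was -0.19 on the log2 scale. The same ratio to the 10 pan-neuronal genes was 0.613 and 0.637 with EGFP alone, 0.66 and 0.685 under overexpression and 0.54 and 0.568 under knockdown. Gad2 is 1 of the 3 genes in these ratios, and it was the only one of the 3 past the threshold.

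The genes whose profiles over the 6 libraries were most like the mean log2 level of Gad1, Gad2 and Slc32a1 were listed as a description, since the libraries share groups. Among 8048 genes with a mean FPKM of at least 5, the highest Pearson correlations were those of Bcan (0.995), Col5a2 (0.993), Mgat5 (0.991), Slc44a1 (0.991) and Cpne5 (0.986). Bcan, encoding the extracellular matrix proteoglycan brevican, had an FPKM of 28.5 and 29.2 with EGFP alone, 30 and 32.8 under overexpression and 21.8 and 21.8 under knockdown. Within the members, the correlation was 0.845 for Gad2 and Slc32a1, 0.707 for Gad1 and Gad2, and 0.508 for Gad1 and Slc32a1. Dlx1 correlated with Gad1 at -0.61 and with Dlx2 at 0.169.

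**Figure D5:**
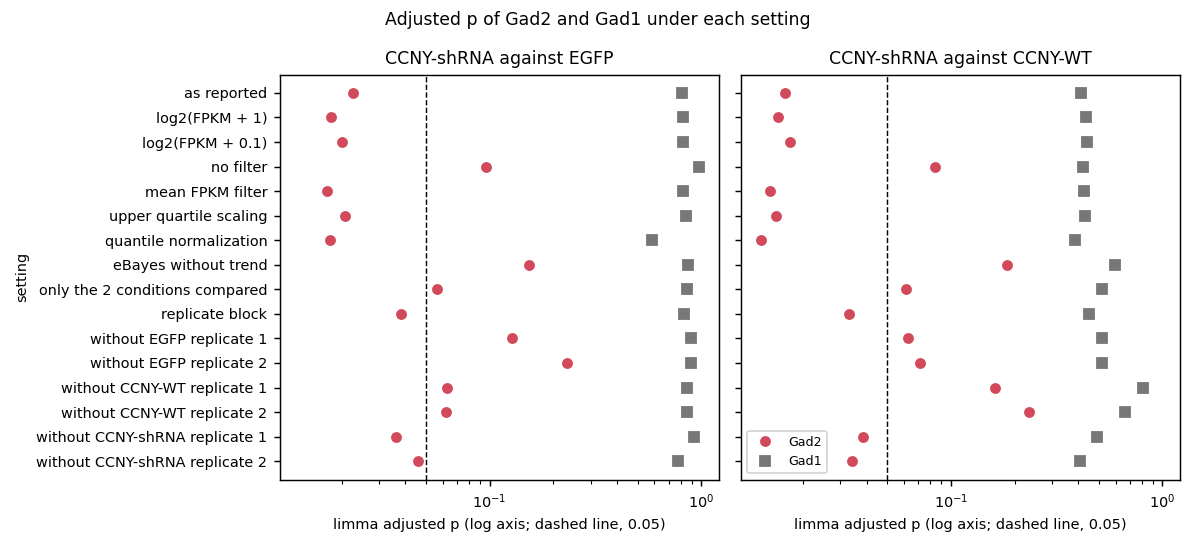
Limma adjusted p (horizontal axes, log scale) of Gad2 and Gad1 under the setting reported and 15 alternatives, for CCNY-shRNA against EGFP (left) and against CCNY-WT (right); the dashed line is 0.05. Gad2 lies left of the line in 8 of the 15 alternatives in each contrast, and Gad1 lies right of it in all.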

How the data were processed

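RNA-seq was measured in 6 libraries of rat hippocampal neurons, 2 in each group. The authors aligned the reads to rn4 with TopHat2 2.0 and Bowtie2 2.1.0, used SAMtools 0.1.19 and R 3.1.0, and computed FPKM with Cufflinks 2.2.1 (versions from the submitters' processing notes). The deposited table holds 1 FPKM value per gene and library. The annotation, strand setting and scaling between libraries are not given in the sources used here. A gene at 0 is only listed at 0.

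FPKM was floored to 1 and log2-transformed, and a fold change is on that scale. Genes that reached an FPKM of 1 in 2 libraries or more were fitted with limma 3.58.1 in R 4.3.3 (lmFit, contrasts.fit, eBayes with trend) over all 6 libraries, without a replicate block, with Benjamini-Hochberg adjustment and a threshold of 0.05. Relative depth came from the FPKM of low genes, of which 99.1% of 1718 with a highest FPKM under 0.3 were whole multiples within a tolerance of 0.03. Python 3.11.15, pandas 2.3.3, numpy 2.4.6, scipy 1.17.1 and matplotlib 3.10.9 were used. Promoter sequences are from RefSeq, GRCr8.

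The members and lists were chosen with earlier results of these data known. Named are all 9 members, Ccny, and from 14 other lists each gene past the threshold, the 2 of highest level and those of largest rise and fall in CCNY-shRNA, plus the 5 genes most correlated with the mean of Gad1, Gad2 and Slc32a1. Slc6a11, Aqp4 and Gphn were named after their values were seen, and some genes of the marker lists are given only within their counts. Alternatives changed the offset, filter, scaling, spread estimate, libraries and replicate block. The reads and cuffdiff calls were not analysed here. Some genes that this rule names, and the list of GABA uptake and breakdown as a whole, are not reported here.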

Additional observations from a re-analysis of the deposited data

How the results depend on the processing

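Of the log2 changes of members under the alternatives, 336 of 360 kept their direction and side of the threshold, 14 lost a call and 10 changed sign, none of the 10 being a call. The call of Gad2 against EGFP (log2 change -0.41) was lost with no filter on low values (adjusted p = 0.0958), with eBayes without trend (0.154), and with only the 2 conditions fitted (0.0564). Its log2 change ran from -0.42 to -0.40 with a library left out, and the adjusted p from 0.0359 to 0.232. Against CCNY-WT (log2 change -0.46) it was lost under the same 3 settings (0.0839, 0.185 and 0.0612), and ran from -0.48 to -0.44 with a library left out, at 0.0342 to 0.235. In these settings 0 members were called, and 0 to 1 with a library left out, in each contrast with CCNY-shRNA. Why the call was lost in some settings and kept in others was not tested.

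Genes called in CCNY-shRNA against EGFP numbered 76, and 2 with no filter, 1 without trend, 25 with only 2 conditions, 39 with the replicate block and 1 to 86 with a library left out. Against CCNY-WT they numbered 22, and 2, 1, 8 and 1 to 22 with no filter, without trend, with only 2 conditions and with a library left out. In CCNY-WT against EGFP 1 gene was called, and 3 with log2(FPKM + 1), 3 with a filter on the mean, 2 with upper quartile scaling and 5 with only 2 conditions. Members past the cut-offs of the study rose from 0 to 1 in CCNY-WT and from 1 to 2 in CCNY-shRNA with log2(FPKM + 0.1), and ran from 0 to 2 and from 1 to 3 with a library left out. Members higher without overlap in CCNY-shRNA against EGFP numbered 0, and 1 with upper quartile scaling and 2 with quantile normalization, both added after the data were seen.

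With a library left out, changes that reversed ran in CCNY-WT against EGFP from -0.026 to 0.099 for Slc32a1, from -0.122 to 0.030 for Calb1 and from -0.332 to 0.235 for Dlx2. In CCNY-shRNA against EGFP they ran from -0.173 to 0.069 for Lhx6 and from -0.122 to 0.017 for Dlx1, and against CCNY-WT from -0.111 to 0.041 for Calb1.

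Deviations of same-numbered libraries from their group means correlated weakly, at 0.0377 to 0.0538. With 2 libraries per group this cannot show whether same-numbered libraries were paired. With the replicate block Gad2 had adjusted p-values of 0.0381 and 0.033 against EGFP and CCNY-WT. Pvalb could not be tested at this depth.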

Other observations

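The lists of glutamate supply and of the inhibitory synapse gave no call. The 8 tested genes of glutamine and glutamate supply, from which GABA is made, all had lower values in CCNY-shRNA than in EGFP, with 0 called, 4 lower with an unadjusted limma p under 0.05 (9.36% of all genes tested) and a median log2 change of -0.18. The neuronal glutamate transporter Slc1a1 had 90.6 and 95.9 with EGFP alone and 90.2 and 91 under knockdown (log2 change -0.04, limma adjusted p = 0.751).

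Of 11 tested proteins of the inhibitory synapse, 9 had lower and 2 higher values in CCNY-shRNA than in EGFP, 0 were called, 4 were lower with an unadjusted limma p under 0.05, against the same share of all genes, and the median log2 change was -0.16. Gabbr1, a subunit of the GABA-B receptor, had 410.9 and 435.2 with EGFP alone and 411.7 and 389.0 under knockdown (log2 change -0.08, limma adjusted p = 0.53). The scaffold gephyrin (Gphn, named after its values were seen) lay between 55.5 and 57.5 in all 6 libraries. Slitrk3, a postsynaptic adhesion protein, had the lowest fitted value, -0.27 (limma adjusted p = 0.158), and Lhfpl4, a partner of GABA-A receptors, the highest, 0.11 (limma adjusted p = 0.406).

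Markers of other cells gave 0 calls. Against EGFP, the median log2 change in CCNY-shRNA was -0.15 for Cajal-Retzius cells (2 of 7 genes tested) and -0.22 for dentate granule cells (4 of 5). It was -0.12 for the oligodendrocyte lineage (5 of 8), 0.11 for mitotic genes (3 of 7), 0.04 for vascular and meningeal cells (2 of 7) and -0.04 for pan-neuronal genes (10). The 2 tested Cajal-Retzius genes are also in the list of interneuron subtype markers, so they are not particular to these cells. Calb1, Prox1 and Neurod1 of the dentate list are also counted in other lists. The mitotic median is the value of Bub1, at 0.95 and 0.801 with EGFP alone, both set to the floor of 1, and 1.07 and 1.09 under knockdown. Ccnb1 had a log2 change of -0.60 and Cdk1 of 0.44.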
